A study of Homo sapiens with 15 samples.

Results

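The genes described here encode the proteins of the cytosolic ribosome, taken as every gene row of the deposited count table whose symbol is RPL, RPS or RPLP followed by a number and at most 1 letter A or X. The pattern found 76 of 15510 gene rows, 46 for the large and 30 for the small subunit. It uses names and no measured value, but this group of genes was chosen with earlier results of these data known. A ribosome is assembled from ribosomal RNA and 1 copy of nearly every one of these proteins, the large subunit forming peptide bonds and the small subunit reading the messenger RNA. Their messenger RNAs are among the most abundant of a growing cell and open with a terminal oligopyrimidine (TOP) tract, a C followed by C and T letters, through which the kinase complex mTORC1 and the RNA-binding protein LARP1 set their translation and stability. AKT lies upstream of mTORC1, and RAS, a small GTPase, and the kinase MEK feed into the same translational control. The counts measure polyadenylated RNA and say nothing of its translation or of the amount of protein.

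The cells were ARPE19, an established line of human retinal pigment epithelium, and 4 lines derived from it, and each of the 5 lines gave 3 libraries. ARPE19 was not transfected. T53D4 carries the plasmids for hTERT with p53DD, a dominant-negative p53 fragment, and for cyclinD1 with CDK4R24C, and both ARPE19 and T53D4 are labelled as not transformed. The other lines carry these same plasmids and 1 more each: RasV12 that for H-RasV12, an active RAS (labelled transformed), MekDD that for MEK-DD, an active MEK kinase (weakly transformed), and AKTmyr that for myr-HA-Akt, a membrane-tethered AKT (transformed). The RAS, MEK and AKT plasmids were each studied in 1 line, and replicates came from separately thawed vials of it, so the p-values below compare vials of the same lines and not independently made lines. In bulk RNA, fewer cells with a given level and less RNA per cell cannot be told apart.

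The libraries held 20625626 to 46549693 reads on genes, of which 1042601 to 2976143 lay on the ribosomal protein genes. Reads on the H-RasV12 construct stood at 310.4 ± 30.4 CPM (counts scaled to the size of each library with TMM factors; mean ± SD, n = 3) in RasV12 and 20.8 ± 3.69 in T53D4, the AKT construct at 839.6 ± 334 CPM in AKTmyr and 117 ± 16 in T53D4, and the MEK-DD construct at 753.2 ± 229 CPM in MekDD and 4 reads in all in T53D4. Reads on the CDK4 and cyclin D1 constructs went against 2 labels. With 92.2 and 146 CPM in T53D4 and 142 and 269.5 in MekDD they lay near the 70.7 and 193 CPM of the untransfected ARPE19, while RasV12 had 2380.5 and 2349.7 CPM and AKTmyr 1005.5 and 858. RasV12 and AKTmyr thus differed from T53D4, MekDD and ARPE19, and from each other, in these constructs as well as in the added oncogene, and the 2 cannot be told apart in any comparison below that holds RasV12 or AKTmyr. T53D4 and MekDD below therefore stand for the libraries so labelled. Of 16 pigment epithelium markers 14 were in the table, with DCT and TTR not in it. The 14 summed to 949.9 to 3732 CPM, lowest in RasV12. That sum rested mainly on KRT8, KRT18 and CRYAB, at 1171.7, 437 and 530 CPM in T53D4. MITF and OTX2 stood there at 92.5 and 64.4 CPM, and no other tested marker was above 7.9 CPM. Of 15 markers of other cell types 8 were present and summed to 1.27 to 4.64 CPM.

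The start of these genes is shown first, because the TOP tract is the sequence they share. RefSeq promoter windows (GRCh38.p14) were matched for 61 of the 76 genes, and a run was taken as a C within 10 bases of the annotated start followed by 5 or more letters that are each C or T, on the strand of the gene. Each line gives the 15 bases before and the 15 bases from the annotated start, 5′ to 3′, with the run in capitals; RPS29 and RPL6, shown for contrast, have no run of that length and their longest stretch is in capitals. The genes are those the results below turn on.
RPLP1: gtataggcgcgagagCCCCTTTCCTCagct
RPLP0: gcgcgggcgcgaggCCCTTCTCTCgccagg
RPL13A: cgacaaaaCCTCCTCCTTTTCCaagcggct
RPS6: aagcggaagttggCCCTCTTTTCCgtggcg
RPS12: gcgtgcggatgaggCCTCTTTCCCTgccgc
RPS19: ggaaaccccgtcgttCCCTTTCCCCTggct
RPS21: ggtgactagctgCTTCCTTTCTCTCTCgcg
RPS24: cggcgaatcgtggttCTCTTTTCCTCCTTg
RPS29: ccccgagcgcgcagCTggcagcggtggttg
RPL6: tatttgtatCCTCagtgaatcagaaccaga
The windows lie at chr15:69452803-69452832 for RPLP1, chr10:78033848-78033877 for RPS24, chr6:132814554-132814583 for RPS12, chr20:62387088-62387117 for RPS21, chr19:41860240-41860269 for RPS19 and chr19:49487593-49487622 for RPL13A, all on the plus strand. On the minus strand they lie at chr12:120201097-120201126 for RPLP0, chr9:19380222-19380251 for RPS6, chr14:49598696-49598725 for RPS29 and chr12:112411428-112411457 for RPL6. A run was found in 49 of the 61 genes (80.3%), in 29 of 38 of the large and 20 of 23 of the small subunit (76.3% and 87.0%). The share was 20.5% over all 27305 promoters of the table and 20.9% over the 12208 that belong to genes of the count table. Among other genes known for a TOP tract it was 85.0% (17 of 20), and among genes of the mitochondrial ribosome, whose messenger RNAs are not counted among TOP messages, 16.2% (11 of 68). The median number of C or T letters after the C was 9 in the ribosomal protein genes and 3 over all promoters, and the longest run, of 22 letters, was in RPL7A. In 7 genes the C was the annotated start itself and in 19 it lay within 2 bases of it. A match describes these letters and is no measured start site, and no match says only that the letters are not in this window.

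**Figure D1:**
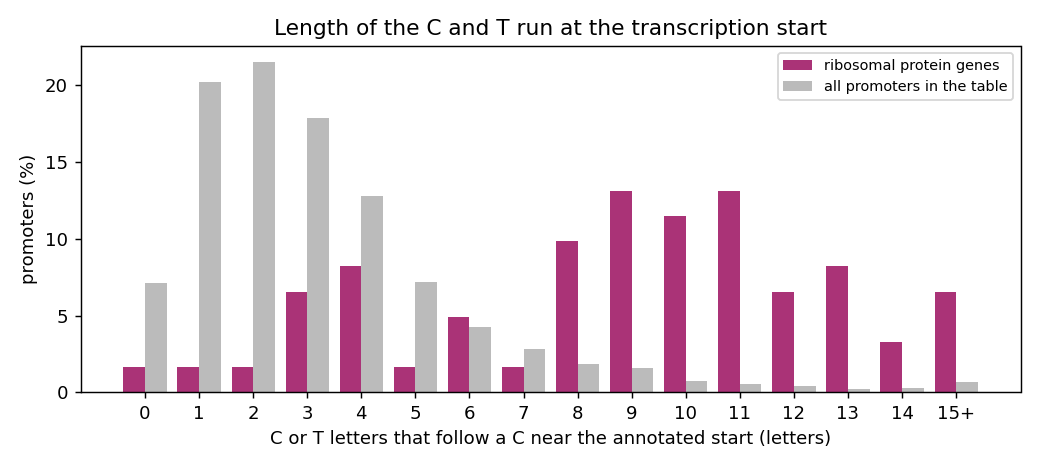
Percent of promoters (vertical axis) by the number of C or T letters that follow a C near the annotated start (horizontal axis), for 61 ribosomal protein genes and for all 27305 promoters of the table. The ribosomal protein genes have a median of 9 letters and all promoters one of 3.

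Large subunit genes took 2.83 ± 0.2% of gene reads in AKTmyr, 3.67 ± 0.062% in ARPE19, 3.93 ± 0.18% in T53D4, 4.12 ± 0.14% in MekDD and 4.3 ± 0.55% in RasV12 (mean ± SD, n = 3). The AKTmyr libraries stood at 2.62, 3.02 and 2.85%, all below the lowest library of any other line, which was 3.6%. Small subunit genes took 1.49 ± 0.076% in AKTmyr, 1.82 ± 0.03% in ARPE19, 1.99 ± 0.074% in T53D4, 2.13 ± 0.025% in MekDD and 2.22 ± 0.25% in RasV12. Again the AKTmyr libraries, at 1.41, 1.56 and 1.49%, lay below every other library, of which the lowest stood at 1.79%. Both subunits together gave 4.03 to 4.58% of gene reads in AKTmyr and 5.62 to 7.14% in RasV12, where replicate 3 was the low library. The means of ARPE19, T53D4, MekDD and RasV12 were in ascending order, but the RasV12 libraries stood at 4.47, 4.75 and 3.69% for the large subunit, and the last of these lay within the range of ARPE19.

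**Figure D2:**
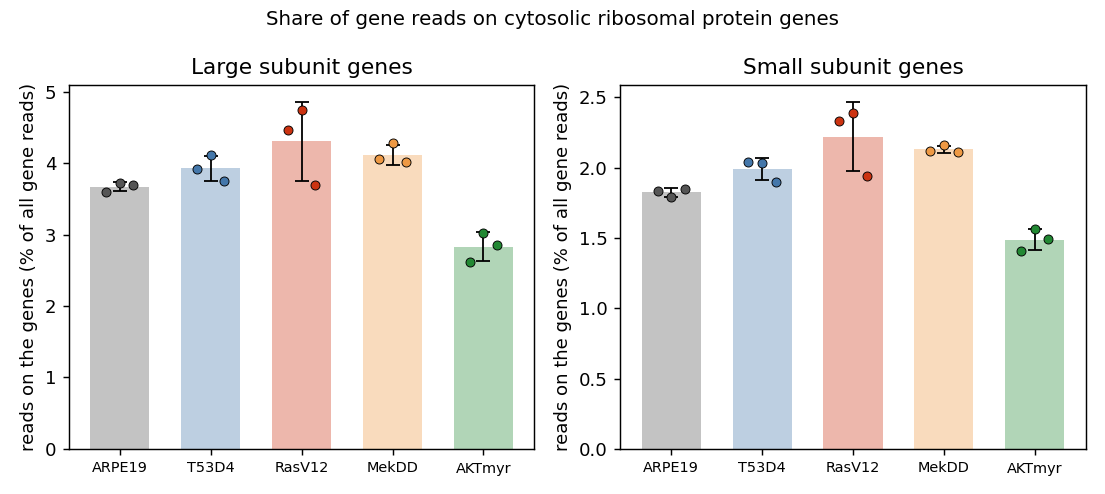
Percent of gene reads (vertical axis) on large and small subunit genes in the 5 lines; bars are means, error bars SD over 3 libraries, and points single libraries. The AKTmyr libraries lie lowest, at 2.62 to 3.02% for the large and 1.41 to 1.56% for the small subunit.

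Reads on large subunit genes were 1.86 to 2.08 times those on small subunit genes over the 15 libraries, with means from 1.9 in AKTmyr and 1.93 in MekDD to 1.94 in RasV12, 1.97 in T53D4 and 2.02 in ARPE19. The ratio in AKTmyr (1.86, 1.93 and 1.91) lay below that of the same-numbered T53D4 library (1.92, 2.03 and 1.97) in all 3 pairs. RasV12 and MekDD, each at 1.92, 1.98 and 1.9, were also at or below the same-numbered T53D4 library, and in replicate 3 below AKTmyr. T53D4 lay below ARPE19 (1.97, 2.08 and 2) in all 3 pairs, and none of these differences was tested. The median over the genes of a subunit, taken as the log2 CPM minus the mean of each gene over all libraries, was similar in both subunits in each library. In AKTmyr replicates 1, 2 and 3 it was -0.42, -0.27 and -0.34 for the large and -0.38, -0.28 and -0.35 for the small subunit. In RasV12 it was 0.28, 0.30 and -0.01 for the large and 0.27, 0.28 and -0.01 for the small subunit. RasV12 replicate 3 thus stood with the ARPE19 libraries, whose medians ran from -0.06 to 0.02 over both subunits, and 0.10 (large) and 0.09 (small) was the pooled SD of such medians within a line.

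Single genes differed in level by orders of magnitude even when counted per kilobase of annotated exon. In the large subunit the mean over all libraries was highest for RPL13A, a protein also known from interferon-dependent control of translation, at 986 CPM per kb, RPL41, the shortest protein of the ribosome, at 901, and RPL8, near the peptide-bond-forming centre, at 747. It was lowest for RPL36A (0.804 CPM per kb), RPL17 (13) and RPL26 (26), against a median of 195 over the 46 genes. In the small subunit RPS12 (1090.0 CPM per kb) and RPS2 (874) led, RPS10 (0.447) and RPS15A (19.1) were among the lowest, and the median was 198. Per kilobase of coding sequence the medians were 1440.0 and 1230.0 CPM, and 4 of the 5 lowest genes of each subunit were shared by both scales. All 5 of the low genes just named share exon bases with another gene on the same strand, as 8 of the 76 do, so their reads could be split in the counting. The shared part was largest in RPS10 (40.3% of its exon bases, with RPS10-NUDT3), RPL17 (24.8%, with RPL17-C18orf32), and RPL36 (17.6%), and smaller in RPL26 (14.5%) and RPL36A (8.4%, with RPL36A-HNRNPH2). Their levels are uncertain for that reason, and RPS10 stood at no more than 1.46 CPM in any library.

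Copies named after them exist for nearly all of these genes. GENCODE 29 names 1059 pseudogenes after 75 of the 76 genes, a median of 9.5 each, with 91 for RPL23A and 66 for RPL21 and 0 for RPL28, and how reads matching a gene and its copy were counted is not given in the sources used here. In 17 genes exon bases overlap an exon of the opposite strand, RPS29 with LRR1 and RPL6 with PTPN11 among them. The genes lie on 21 chromosomes, and 27 of them (35.5%) hold a small nucleolar RNA gene in the same orientation, against 1.52% of the 15502 genes placed on the annotation. These hosts of small nucleolar RNAs, which guide the modification of ribosomal RNA, had a median log2 difference between AKTmyr and T53D4 of -0.40, and the other 49 genes one of -0.44.

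AKTmyr and T53D4 differ by label in the AKT plasmid, and by measurement also in the cyclin D1 and CDK4 constructs. All 76 genes had a lower fitted value in AKTmyr, with a median fold of 0.733 for the large and 0.773 for the small subunit. With the quasi-likelihood test of edgeR and Benjamini-Hochberg adjustment over 13599 genes, 25 of 46 large and 13 of 30 small subunit genes fell and 0 rose, where 10.2% of all genes tested fell and 9.91% rose. The median log2 fold change was -0.45 for the large and -0.37 for the small subunit, against -0.01 over all genes. The 3 AKTmyr libraries lay below the 3 T53D4 libraries in 39 large and 23 small subunit genes, an arrangement found in 18.5% of all genes. Reads on the cyclin D1 and CDK4 constructs lay near the ARPE19 level in T53D4 and above it in AKTmyr. The direction of the ribosomal protein genes can therefore not be assigned to the AKT plasmid alone.

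Among the stalk proteins, which recruit the GTPases of translation to the large subunit, RPLP1 (chr15:69452814-69456205) stood at 1297, 1220.1 and 1056 CPM in T53D4 replicates 1, 2 and 3 and at 784, 957 and 743 in AKTmyr. The lines did not overlap, although AKTmyr replicate 2 came near T53D4 replicate 3. The log2 fold change was -0.52 (SE 0.13, Benjamini-Hochberg adjusted p = 0.0127, edgeR quasi-likelihood). RPLP2, its partner, fell from 480.4, 367.5 and 356 CPM to 297, 265 and 271 (log2 -0.53, adjusted p = 0.025). RPLP0, which anchors both to the ribosome, stood at 2291, 2251 and 2077 CPM against 1732, 1819 and 1693, without overlap but with a smaller difference that did not pass (log2 -0.34, SE 0.13, adjusted p = 0.0894). RPL12, at the base of the stalk, had the lowest value of the large subunit, log2 -0.65, and its SE of 0.23 kept it from passing (adjusted p = 0.0636). Its libraries did not overlap but were widely spread, from 839.5 to 1257 CPM in T53D4 and from 556.5 to 807 in AKTmyr.

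In the core of the large subunit, RPL8 stood at 1897, 1796 and 1717 CPM in T53D4 and 1021, 1364 and 1140.4 in AKTmyr. It had the lowest log2 fold change among the large subunit genes that passed, -0.62 (SE 0.14, adjusted p = 0.00809), with replicate 2 the high AKTmyr library. RPL3, which lines the same catalytic centre, fell by 0.46 on the log2 scale and RPL10, which joins the subunit last, by 0.51 (adjusted p = 0.0308 and 0.0129). RPL10A, of the mobile L1 stalk, fell from 802, 823 and 783 CPM to 469.7, 606 and 585 (log2 -0.54). RPL13A fell from 2669.8, 2251 and 2235 CPM to 1586.5, 1853 and 1620.5 (log2 -0.50, adjusted p = 0.0165), with every AKTmyr library well below every T53D4 library. RPL28 and RPL37A were also among the large subunit genes with the largest falls, both at -0.55.

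Around the exit tunnel, through which the nascent chain leaves, 4 of 9 genes fell and the list had a median of -0.44. Among all 76 ribosomal protein genes 38 fell, with a median of -0.43, and of all genes tested 10.2% fell. RPL22, a protein of the rim that mice can live without, went from 140.1, 117 and 119.5 CPM to 89.4, 78 and 92.2 (log2 -0.54, adjusted p = 0.00878). RPL23A, the docking site of the signal recognition particle, fell by 0.51 and RPL39, a short protein of the tunnel wall, by 0.36. RPL26, on the same rim, had log2 -0.53 with SE 0.31, and its libraries spread more within a line than those of any other member. RPL5 and RPL11, which carry the 5S ribosomal RNA and bind the p53 regulator MDM2 when free, had fitted values below 0. RPL5 fell from 1209.9, 1185 and 1066 CPM to 847, 855 and 919 (log2 -0.40, adjusted p = 0.0245). RPL11 gave -0.31 and did not pass (95% interval -0.59 to -0.03, adjusted p = 0.108). RPL6, which had the value nearest 0 of the subunit, gave -0.23 (adjusted p = 0.231), and RPL41 and RPL36A gave -0.43 and -0.63 without passing.

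In the small subunit RPS29, a zinc-binding protein of the head, had the lowest value. It stood at 261, 234 and 264 CPM in T53D4 and 150.3, 148.5 and 161 in AKTmyr, where the highest library, at 161, lay well below the lowest of T53D4, at 234. The log2 fold change was -0.72 (SE 0.14, Benjamini-Hochberg adjusted p = 0.00359, edgeR quasi-likelihood), and of the 38 genes called here it was the only one called in every alternative fit of these 2 lines other than scaling on the 76 genes themselves, which called 0. Its ARPE19 libraries, at 177, 183 and 225 CPM, lay between the 2 lines, and it shares exon bases with LRR1 on the other strand. RPS9, at the entry of the messenger RNA, fell from 871, 694 and 819 CPM to 507.5, 543 and 569.5 (log2 -0.56, SE 0.12, adjusted p = 0.00715). RPS18, of the head, fell from 1093, 1091 and 988 CPM to 615, 837 and 715 (log2 -0.55, adjusted p = 0.009). RPS16, also of the head, fell by 0.59.

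The 5 genes of the messenger RNA entry and decoding site gave 3 falls and a median of -0.40, with RPS3 at -0.31 among those that did not pass (adjusted p = 0.103). The 5 genes of the beak and platform gave 2 falls, RPS12 and RPS14, and a median of -0.35. Both lists stand beside 38 falls among all 76 genes, with a median of -0.43, and 10.2% of all genes tested. RPS12 stood at 742, 708 and 707.5 CPM against 470.2, 557 and 489.9 (log2 -0.51, adjusted p = 0.0136) and RPS14, a gene lost in a form of myelodysplastic syndrome, at 1141.5, 1000.3 and 1111 against 645, 868 and 834 (log2 -0.47, adjusted p = 0.0431). RPS21 fell from 269, 231 and 264 CPM to 169, 182 and 183 (log2 -0.52). RPS6, the substrate of the S6 kinases downstream of AKT and mTORC1, stood at 1468, 1306 and 1198 CPM against 975.5, 1071 and 1015. Its lines did not overlap, and its log2 value of -0.38 (SE 0.14) had an adjusted p = 0.0806. RPS4X, RPS26, RPS27, RPS27A (made as a fusion with ubiquitin) and RPS28 gave -0.37, -0.29, -0.37, -0.35 and -0.51 without passing. RPS24 had the value nearest 0: its AKTmyr libraries, at 649.7, 685 and 665.5 CPM, overlapped those of T53D4, at 697, 823 and 667, and the 95% interval of its log2 difference ran from -0.39 to 0.13.

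Of 17 genes known for mutations in Diamond-Blackfan anaemia, an inherited failure of red cell production, 8 fell and 0 rose, with a median of -0.40, beside 38 falls among all 76 and 10.2% of all genes tested. Among the 8 are RPL5, RPL27, RPL31, RPL35A, RPS7, RPS15A and RPS29, and RPS19, the gene mutated most often, gave -0.29 (SE 0.15, adjusted p = 0.201). The median was -0.44 for the 49 genes with a C and T run at the start and -0.38 for the 12 without, a difference that was not tested.

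The number of calls moved with the fit far more than the values did. Every p-value of a single gene given here comes from the fit without a replicate block. With the replicate number as a block, 39 large and 25 small subunit genes were called lower, all 38 genes of the analysis without the block among them, where 17.9% of all genes were called lower. With the AKTmyr and T53D4 libraries alone in the fit 0 large and 1 small subunit genes passed. The 25 and 13 calls became 6 and 3 without AKTmyr replicate 1 and 8 and 5 without T53D4 replicate 1. Without T53D4 replicate 2 they were 15 and 7, and the small subunit calls were 6 without T53D4 replicate 3 and 8 without AKTmyr replicate 3. All 76 values stayed below 0 in every one of these fits, with medians from -0.49 to -0.36 for the large and -0.44 to -0.33 for the small subunit when single libraries were left out.

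**Figure D3:**
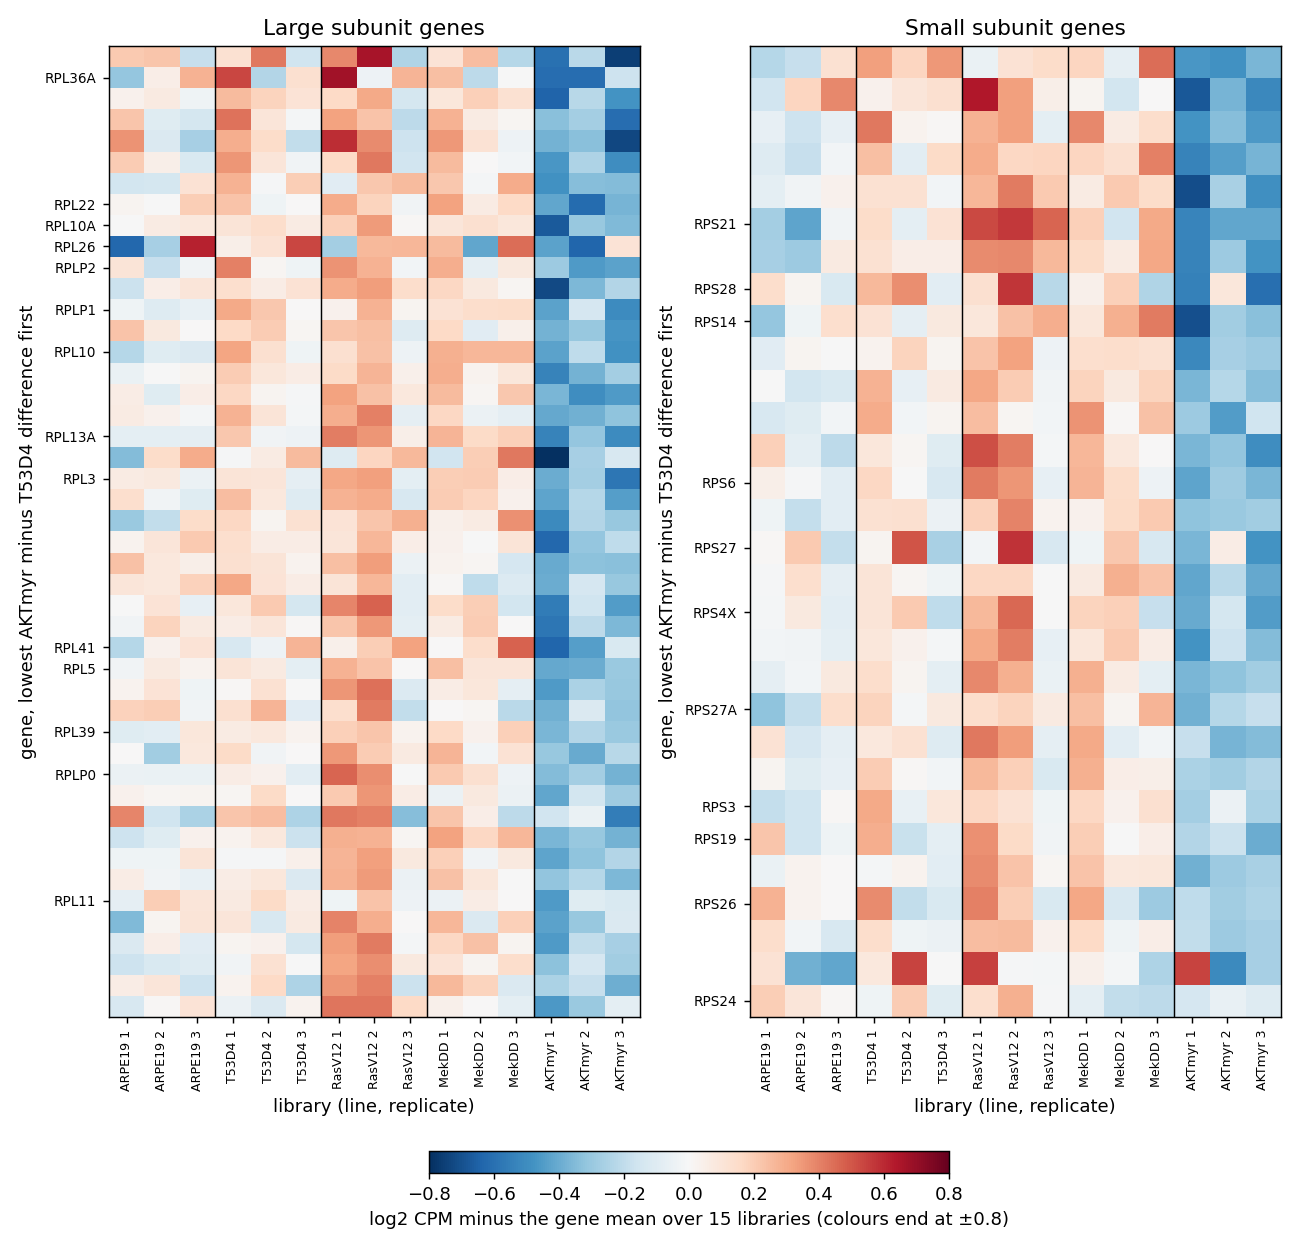
Log2 CPM of each gene minus its mean over 15 libraries (colour, ending at 0.8 on either side), genes in rows, of which a fixed set is labelled, and libraries in columns grouped by line. The AKTmyr columns are below the gene mean for nearly all genes, with medians of -0.42 to -0.27 in the large subunit, and RasV12 replicates 1 and 2 have medians of 0.27 to 0.30.

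RasV12 versus AKTmyr and MekDD versus AKTmyr ask how the RAS and MEK lines differ from the AKT line. Both use the same AKTmyr libraries as the comparison with T53D4, so their results are not independent of it. In RasV12, 41 large and 24 small subunit genes were higher than in AKTmyr and 0 lower, where 19.6% of all genes were higher and 20.7% lower by edgeR's quasi-likelihood test. All 76 values were above 0, with a median fold of 1.46 for the large and 1.43 for the small subunit, and the 3 RasV12 libraries lay above the 3 AKTmyr libraries in 42 and 27 genes, as in 24.1% of all genes. The median log2 differences were 0.55 and 0.52, and 0.65 and 0.61 without RasV12 replicate 3.

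RPS21 had the largest difference. Its RasV12 libraries stood at 351, 360.3 and 336 CPM and its AKTmyr libraries at 169, 182 and 183 (log2 0.97, SE 0.14, Benjamini-Hochberg adjusted p = 0.000114, edgeR quasi-likelihood). RPS12, RPS18 and RPS2 were also among the highest of the small subunit, at 0.77, 0.77 and 0.71. In the large subunit RPL12, RPL36A, RPL13, RPL13A and RPL14 led at 0.82, 0.78, 0.77, 0.72 and 0.68. RPL13A stood at 3054, 2928 and 2368 CPM in RasV12, above every AKTmyr library. All of RPLP0, RPLP1 and RPLP2 were higher (0.62, 0.46 and 0.60), as were RPL5 (0.54), RPL3 (0.61), RPL10 (0.48), RPL10A (0.62), RPL22 (0.62), RPL39 (0.45) and RPL41 (0.57). RPS6 was higher by 0.61 (adjusted p = 0.0045) and RPS14, RPS4X, RPS27A and RPS19 by 0.63, 0.57, 0.39 and 0.44. Of the genes named here, RPLP1, RPL10, RPL41, RPS4X, RPS27A and RPS19 also lost their call in some alternative fit. The 11 genes that did not pass were RPL7, RPL11, RPL26, RPL32, RPL36, RPS3, RPS10, RPS24, RPS26, RPS27 and RPS28, among which RPL11 gave 0.27 (95% interval -0.01 to 0.55) and RPS24 0.24 (-0.02 to 0.50).

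In MekDD, 30 large and 19 small subunit genes were higher than in AKTmyr and 0 lower, where 12.7% of all genes were higher and 13.5% lower. The median log2 differences were 0.47 and 0.45, and the libraries did not overlap in 39 and 24 genes, as in 20.2% of all genes. RPS14 stood at 1119, 1284 and 1406 CPM against 645, 868 and 834 (log2 0.70, SE 0.15, adjusted p = 0.00487). RPS9, RPS29, RPS16 and RPS18 differed by 0.69, 0.64, 0.63 and 0.62. In the large subunit RPL22, RPL13A, RPL10, RPL9 and RPL34 led, with 0.65, 0.65, 0.64, 0.60 and 0.60. RPL10 varied little within MekDD, at 1090.3, 1079.6 and 1078 CPM, and all were above the AKTmyr libraries at 665, 779 and 642. RPS24 and RPS10 were the only genes with a value below 0, both -0.06, and RPL11 and RPL38 gave 0.22 and 0.18 without passing. The calls became 12 and 10 without AKTmyr replicate 1, 17 for the large subunit without MekDD replicate 1, and 11 and 8 with these lines alone.

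**Figure D4:**
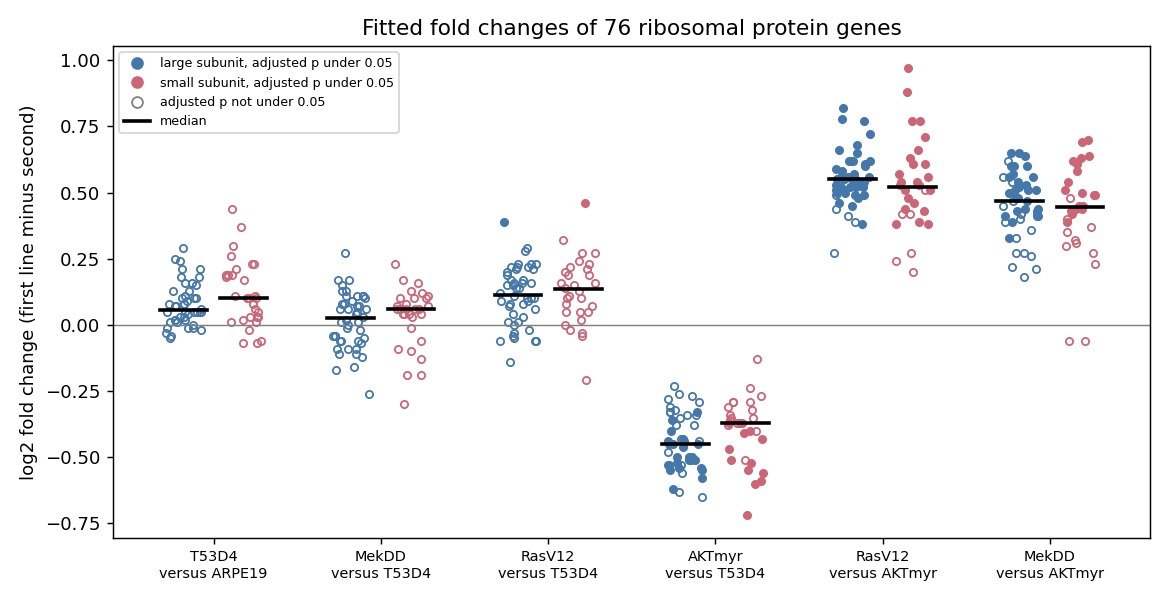
Fitted log2 fold change (vertical axis, first line minus second) of each of the 76 genes in 6 comparisons, large and small subunit apart; filled points passed an adjusted p of 0.05 and black bars are medians. The AKTmyr versus T53D4 medians are -0.45 and -0.37, those of RasV12 and MekDD versus AKTmyr lie between 0.45 and 0.55, and those not involving AKTmyr between 0.03 and 0.14.

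RasV12 versus T53D4 concerns the line with active RAS, which also had the highest cyclin D1 and CDK4 construct reads. RPL6 and RPS21 rose, and no other ribosomal protein gene passed, where 10.8% of all genes rose and 13.6% fell. The medians were log2 0.11 (large) and 0.14 (small), with 38 of 46 and 26 of 30 values above 0. RPS21 (chr20:62387103-62388520) stood at 351, 360.3 and 336 CPM in RasV12 and 269, 231 and 264 in T53D4, with no overlap (log2 0.46, SE 0.14, Benjamini-Hochberg adjusted p = 0.0247, edgeR quasi-likelihood). RPL6 (chr12:112405190-112418838) stood at 1346, 1342 and 1117 CPM against 967, 922 and 1017, again with no overlap and with replicate 3 the low RasV12 library (log2 0.39, SE 0.13, adjusted p = 0.0407). RPS21 lost its call without T53D4 replicate 2, RasV12 replicate 1 or RasV12 replicate 2, and RPL6 lost it when any single library of these lines other than RasV12 replicate 3 was left out. Without RasV12 replicate 3, 4 large and 2 small subunit genes were called higher. With the replicate block the count was 1 large and 2 small, where 16.6% of all genes were higher.

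Other genes of the same chromosome arm were shifted in some cases, and not always in the direction of the ribosomal protein gene. Arms were parted at the largest gap between annotated genes, and genes were counted with a minimum of 5 CPM. The other 193 genes so counted on the chromosome 20 arm that holds RPS21 had a median log2 difference of 0.28 between RasV12 and T53D4. The part of that in the 0.46 of RPS21 was not tested. The 436 genes so counted on the RPL6 arm of chromosome 12 had a median of 0.03. On the arm of chromosome 10 that holds RPS24 the median was 0.31, above the 0.11 of RPS24 itself, and around RPL3 on chromosome 22 it was -0.16, below its 0.15. Of the genes that did not pass, RPS2 and RPLP0 had the next highest values, 0.32 (adjusted p = 0.163) and 0.29 (0.136), and RPS29 the lowest, -0.21 (0.301). RPS6, RPL13A, RPL5, RPS19 and RPL11 gave 0.23, 0.22, 0.14, 0.15 and -0.04.

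**Figure D5:**
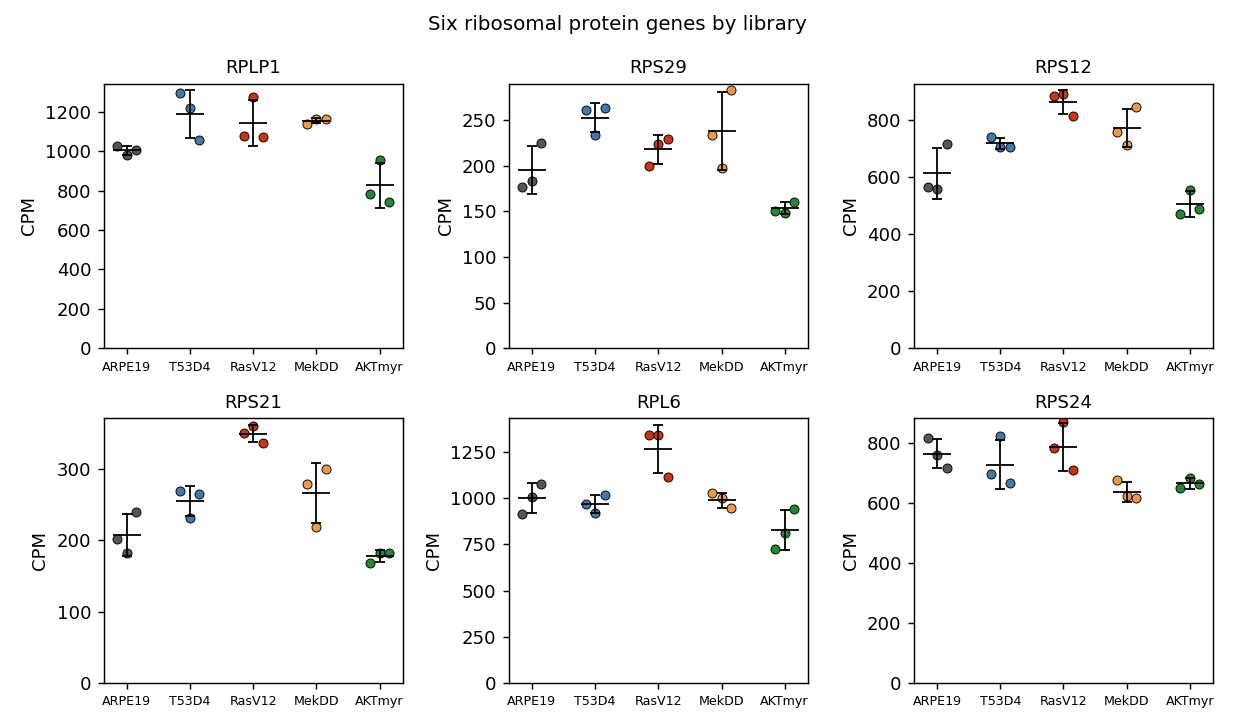
Normalised read count (CPM, vertical axes from 0) of RPLP1, RPS29, RPS12, RPS21, RPL6 and RPS24 in the 5 lines; points are libraries, horizontal marks means and error bars SD (n = 3). RPS29 is lowest in AKTmyr (148.5 to 161), RPS21 and RPL6 are highest in RasV12, and the AKTmyr and T53D4 libraries overlap in RPS24.

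In MekDD versus T53D4 0 of the 76 genes passed, where 2.27% of all genes rose and 2.83% fell by edgeR's quasi-likelihood test; 1 gene had an unadjusted p under 0.05 and DESeq2 called 0. The medians were log2 0.03 and 0.06, and the large subunit values ran from -0.26 (RPL38, adjusted p = 0.29) to 0.27 (RPL9, adjusted p = 0.246). RPL38, known from its part in the translation of Hox genes in the mouse, stood at 262, 226 and 241 CPM in MekDD and 322.5, 281 and 271 in T53D4, without overlap. Small subunit values ran from -0.30 (RPS10) to 0.23 (RPS14), with RPS24 at -0.19 (95% interval -0.45 to 0.07) and RPS6 at 0.11 (-0.20 to 0.42).

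T53D4 and ARPE19 differ by label in the shared plasmids, but reads on the cyclin D1 and CDK4 constructs lay near each other in these lines. The hTERT and p53DD constructs stood at 878.9 and 70.7 CPM in T53D4 and at 0.176 and 0.00977 in ARPE19. Again 0 of the 76 genes passed, where 0.0368% of all genes rose and 0.118% fell by edgeR's quasi-likelihood test. An unadjusted p under 0.05 was reached by 3 genes, and DESeq2 called 0. The medians were log2 0.05 and 0.10, with 38 of 46 and 26 of 30 values above 0. RPS29 and RPL10 were among the highest, at 0.37 (adjusted p = 0.372) and 0.29 (0.435), and RPS21 gave 0.30 (95% interval 0.01 to 0.59). RPL5, RPL22, RPL3 and RPS19 lay within 0.01 of 0, with intervals as wide as -0.32 to 0.34 for RPS19.

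RasV12 versus MekDD gave 0 calls as well, where 7.17% of all genes were higher and 8.33% lower by edgeR's quasi-likelihood test. An unadjusted p under 0.05 was reached by 1 large and 3 small subunit genes, and DESeq2 called 1 and 2 genes higher. The medians were 0.09 and 0.11, and that of the large subunit ran from 0.03 to 0.19 when single libraries were left out. RPS21 and RPL6 were again near the top, with 278, 219 and 300.2 and 1026, 999 and 946 CPM in MekDD, differences of 0.39 and 0.36, and adjusted p = 0.066 and 0.0795. RPS24 gave 0.30 (95% interval 0.05 to 0.56). With the replicate block 1 large and 2 small subunit genes were higher, where 12.5% of all genes were.

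With ARPE19 as the reference, a comparison added after the data were seen, 14 large and 3 small subunit genes were lower in AKTmyr and 0 higher, where 8.86% of all genes were lower and 7.98% higher. The medians were log2 -0.37 and -0.29, and the libraries did not overlap in 35 and 23 genes, as in 16.7% of all genes. With the replicate block 43 of the 76 genes were lower and 0 higher, where 15.2% of all genes were lower. RPL22 (-0.54, adjusted p = 0.00918), RPL10A (-0.48), RPL3 (-0.45) and RPL5 (-0.39) fell in the large subunit, and RPS18 (-0.45, adjusted p = 0.0261) and RPS23 (-0.36) were among those that fell in the small. RPS29, lowest against T53D4, did not pass here (-0.35, adjusted p = 0.105), and neither did RPS21 (-0.22, 95% interval -0.51 to 0.07). In RasV12, 14.4% of all genes were higher and 16.2% lower than in ARPE19, and the ribosomal protein genes that rose were RPS21 (0.75, adjusted p = 0.00103), RPS12 (0.50, adjusted p = 0.00932) and RPL30 (0.39, adjusted p = 0.0163). RPS21 stood at 201, 182 and 239 CPM in ARPE19, below every RasV12 library. In MekDD, where 4.61% of all genes were higher and 6.27% lower than in ARPE19, RPL10 rose (767, 839.5 and 827 CPM in ARPE19, log2 0.42, adjusted p = 0.0497).

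Over the 5 line means, AKTmyr was the lowest line for 74 of the 76 genes, all 46 of the large and 28 of the small subunit. The exceptions were RPS24, lowest in MekDD at 677, 623 and 616 CPM, and RPS10, lowest in ARPE19. RasV12 was the highest line for 52 genes, MekDD for 13, T53D4 for 11 and ARPE19 for 0. The SD over line means, on the log2 scale, had a median of 0.22 over the ribosomal protein genes and 0.26 over all genes tested, and the SD within lines had medians of 0.14 and 0.24. The lines differed most in RPS21 (SD 0.37), with RPL12, RPS12 and RPS18 (0.30 each) also among the highest, and least in RPS24 and RPL11 (0.13 each), RPS3 (0.14), RPL36 (0.15) and RPS27 (0.16). RPL36 was quiet between lines but not within them, with a within-line SD of 0.32, and RPL26 and RPS10 had larger ones still (0.43 and 0.34).

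To see which genes departed from the rest of the ribosome, the scaling was also set on the 76 genes alone, an alternative added after the data were seen. It shifts the median of all genes by log2 0.40 in AKTmyr versus T53D4, -0.51 in RasV12 versus AKTmyr and -0.44 in MekDD versus AKTmyr, so values on it are relative to the ribosomal protein genes. On this scale 0 of the 76 genes passed in AKTmyr versus T53D4 by edgeR's quasi-likelihood test, and 1 had an unadjusted p under 0.05. RPS24, whose gene is spliced into messenger RNAs with different ends in different tissues, was lower relative to the others in MekDD than in AKTmyr (log2 -0.52, SE 0.12, Benjamini-Hochberg adjusted p = 0.00309, edgeR quasi-likelihood) and in RasV12 than in AKTmyr (-0.29, SE 0.12, adjusted p = 0.0496). RPL38 was lower in MekDD than in AKTmyr (-0.28, SE 0.10, adjusted p = 0.0411), and RPS21 higher in RasV12 than in AKTmyr (0.45, SE 0.15, adjusted p = 0.0164). No other of the 76 genes passed in these comparisons, while over all genes 42.9% were lower in MekDD versus AKTmyr, and 50.7% lower and 5.81% higher in RasV12 versus AKTmyr. So many calls come with the shifted scale, and they loosen the Benjamini-Hochberg adjustment, which runs over all genes. An adjusted p under 0.05 is therefore easier to reach on this scale, and those near 0.05, of RPS24 in RasV12 and of RPL38, carry little weight.

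Ribosomal proteins and close relatives whose symbols fall outside the pattern were counted apart. In AKTmyr versus T53D4 0 of 9 tested passed by edgeR's quasi-likelihood test and 5 had an unadjusted p under 0.05, with a median of -0.29, where 10.2% of all genes fell. RPSA, a small subunit protein also known as a laminin receptor, gave -0.37 (adjusted p = 0.0636), FAU, whose product is cut into a ubiquitin-like part and a small subunit protein, -0.36, and RPL22L1, a paralogue of RPL22, -0.82 (adjusted p = 0.0829). In RasV12 versus AKTmyr 5 of 9 were higher, with a median of 0.36, where 19.6% of all genes were higher. RPSA stood at 1546 CPM against 1048.5 (log2 0.56, adjusted p = 0.00477), and FAU, RPL22L1 and RPL36AL were higher by 0.45, 1.03 and 0.27.

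Other genes of translation were counted by lists in AKTmyr versus T53D4, where 10.2% of all genes fell and 9.91% rose. Of 26 other TOP genes 7 fell and 0 rose (median -0.40), among them RACK1 (log2 -0.63), a scaffold on the small subunit, HNRNPA1 (-0.59), a splicing factor, and PABPC1 (-0.59), the poly(A)-binding protein. Elongation factors gave 2 falls of 14, EEF1B2 (-0.55) and EEF1D (-0.42), with a median of -0.16, and initiation factors 6 falls and 1 rise of 36 (median -0.26), led by EIF6 (-0.81), which keeps the subunits apart. Chaperones, assembly and export factors of the ribosome gave 11 falls and 0 rises of 32 (median -0.36), with RRS1 at -1.18, NOB1 at -0.86 and BYSL at -0.73. Genes of the mitochondrial ribosome gave 18 falls and 0 rises of 77 (median -0.25), with MRPS2 at -0.75 and MRPL15 at -0.72. The median of the control genes was not below 0. Of 23 mTORC1 and TOP control genes TBC1D7, a subunit of the TSC complex, rose by 0.58, CNBP, which binds TOP messenger RNAs, fell by 0.42, and the median was 0.05. LARP1 gave -0.43 (SE 0.20, adjusted p = 0.142).

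In RasV12 versus AKTmyr the same lists, on the same AKTmyr libraries and beside 19.6% of all genes higher and 20.7% lower, gave 17 of 26 other TOP genes higher and 0 lower, 22 of 32 assembly factors higher and 0 lower and 39 of 77 mitochondrial genes higher and 0 lower. Elongation factors gave 8 higher and 1 lower and initiation factors 17 and 2, while the control genes gave 2 and 3. MYC, a transcription factor known for raising ribosomal protein and ribosome assembly genes, stood at 232.5, 214 and 189 CPM in T53D4 and 87.4, 97.2 and 73.6 in AKTmyr, with no overlap (log2 -1.30, SE 0.17, Benjamini-Hochberg adjusted p = 0.000288, edgeR quasi-likelihood). RasV12 was also lower in MYC than T53D4, at 139, 150 and 108.5 CPM (log2 -0.68, adjusted p = 0.00887). Any part of MYC or LARP1 in the values above was not tested.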

How the data were processed

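The authors deposited a table of raw counts per gene for 15 libraries, the values used here. Per the submitters' processing notes the tools included featureCounts 1.6.4, HISAT2 2.1.0, DESeq2 1.28.1, fastp 0.20.0, deepTools 3.2.0 and SAMtools 1.9, with the hg38 build, and whether counting used strand is not given in the sources used here. The smallest row total was 10 reads. The 7 construct rows were left out of library sizes and tests.

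Genes passing filterByExpr (minimum count 10; 13599, all 76 ribosomal protein genes included) were fitted with edgeR 4.0.16 (R 4.3.3) by its quasi-likelihood test, TMM scaling, all 15 libraries and line as the only factor, with Benjamini-Hochberg adjustment and a threshold of 0.05. DESeq2 1.42.0, other scalings, no filter, the compared lines alone, a replicate block and leaving out single libraries were tried. In the 7 comparisons other than those of an oncogene line with ARPE19, same-numbered libraries deviated together with r of 0.02 to 0.61, over 0.1 in 20 of 21 pairs, and the numbers were taken to pair the libraries in all of them but RasV12 versus AKTmyr. In the added comparisons with ARPE19 r was 0.29 to 0.69 for AKTmyr, taken as paired, and fell to -0.01 for RasV12 and 0.08 for MekDD in replicate 3, taken as unpaired. The p-values of single genes are nonetheless from the fit with line as the only factor, which leaves this pairing out. With the block 64 of the 76 genes, in place of 38, were called in AKTmyr versus T53D4. No pair of libraries was identical. The script was tested on simulated data. Exon lengths and overlaps came from the annotation deposited with the counts, and promoter sequences from RefSeq. GENCODE 29 gave the pseudogenes and small nucleolar RNA genes.

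The genes, lists and named genes were chosen with earlier results of these data known. Named were 25 genes of known function, every called gene where 10 or fewer were called per subunit and otherwise the 5 with the largest change, the genes with the largest and smallest spread over lines, the highest and lowest per length, the relatives, MYC, LARP1 and up to 3 called genes per other list. Some genes that the rule names are not reported here. RPL22L1, RPL38 and the genes listed as not called were named after their values were seen.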

Additional observations from a re-analysis of the deposited data

How the results depend on the processing

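Of 660 counts, medians and shares recomputed, 606 kept their value within the limits set and 54 moved. Counts of 0 that stayed 0 are among those kept, and counts and shares could not be labelled as reversed. The sign of a median was compared only if it moved by at least the pooled SD within a line (0.10 large, 0.09 small). No median moved that far with a change of sign, but one nearer 0 could change sign and still be among those kept. Library size alone and the compared lines alone each left 0 large subunit genes higher in RasV12 versus T53D4. The compared lines alone left 0 large and 1 small subunit genes lower in AKTmyr versus T53D4 and 11 and 8 higher in MekDD versus AKTmyr. The replicate block gave 2 small subunit genes in RasV12 versus T53D4, 39 and 25 genes in AKTmyr versus T53D4 and 1 and 2 in RasV12 versus MekDD, where DESeq2 also gave 1 and 2, and it changed no other count by over 1.5 times. With ARPE19 as the reference 14 and 3 genes were lower in AKTmyr, 2 small subunit genes were higher in RasV12 (median 0.23) and 1 large subunit gene in MekDD (small subunit median 0.16), and there the replicate block gave 43 lower in AKTmyr and, where the numbers did not pair the libraries, 12 higher in RasV12 and 4 in MekDD. Leaving out single libraries gave 0 to 4 large and 0 to 2 small subunit genes higher in RasV12 versus T53D4, 6 to 24 and 3 to 13 lower in AKTmyr versus T53D4, and 12 to 26 and 10 to 17 higher in MekDD versus AKTmyr. It moved the medians of RasV12 versus AKTmyr over 0.48 to 0.65 and 0.46 to 0.61, and the large subunit median of RasV12 versus MekDD over 0.03 to 0.19. Without the 10 genes of most reads the shares were 3.95, 4.22, 4.41 and 3.04% for the large and 1.96, 2.14, 2.28 and 1.6% for the small subunit in ARPE19, T53D4, MekDD and AKTmyr. With 3 letters after the C, 95.1% of members and 51.1% of all promoters had a run, and with 7 letters 9.1% of all promoters. Calls kept in every alternative fit of the same lines, other than scaling on the 76 genes, were 0 of 2 in RasV12 versus T53D4, 1 of 38 in AKTmyr versus T53D4, 41 of 65 in RasV12 versus AKTmyr and 17 of 49 in MekDD versus AKTmyr. That scaling, added after the data were seen, left 0 lower in AKTmyr versus T53D4, 1 higher and 1 lower in RasV12 versus AKTmyr and 0 higher and 2 lower in MekDD versus AKTmyr. Scaling on the 76 genes takes out the shift they share by design, so its counts hold only departures from that shift. Many other genes are called on that scale, which makes an adjusted p under 0.05 easier to reach there. The cause of the other changes was not tested. With 3 vials of 1 line per construct, values compare these lines. Reads shared with pseudogenes, fused transcripts or the opposite strand could not be separated, and depth limits RPS10 and RPL36A.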
